A study of Mus musculus with 6 samples.

Results

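The genes described here carry out or govern the oxidation of fatty acids and the use of ketone bodies. They form a list of 32 genes, found by symbol in the platform annotation of the array. Of these, 31 had at least 1 probe set with exactly 1 gene symbol, out of 18193 such genes in all. Where a gene had several probe sets, the one brightest on average over the 6 arrays stood for it. Acsl1, an acyl-CoA synthetase, had no such probe set and has no value here. Of the measured genes, 21 encode mitochondrial proteins, including both ketone enzymes, 3 encode peroxisomal enzymes, 5 encode acyl-CoA synthetases that sit on membranes, and 2 encode nuclear regulators.

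The arrays held RNA of EGFP-positive cells obtained by flow sorting of cortical grey matter from the somatosensory area of mice. The 3 reactive samples came from TgN(hGFAP-EGFP) GFEA mice, whose reporter is under a human GFAP promoter, and were collected 5 days after a stab wound of 0.7 mm depth and 1 to 1.2 mm length. The 3 non-reactive samples came from Tg(Aldh1l1-eGFP)OFC789Gsat mice without injury, in which regulatory sequence of Aldh1l1 drives it. All mice were FVB/N, aged 2 to 3 months and of undetermined sex, and each sample pooled cells of about 15 animals. The labels' protocol describes BrdU labelling of dividing cells without saying whether the mice of the arrays received it. Injury and reporter line coincided, so their parts in a difference between the groups cannot be told apart.

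A fatty acid is first activated to an acyl-CoA by a synthetase, carried into mitochondria as a carnitine ester and shortened there in repeated rounds of dehydrogenation, hydration, a further dehydrogenation and thiolysis. The electrons reach the respiratory chain through an electron transfer flavoprotein, and peroxisomes shorten chains that are too long or otherwise unsuited to mitochondria. Ketone bodies, made from acetyl-CoA mainly in the liver, are turned back into acetyl-CoA in steps that include those of Bdh1 and Oxct1. In the adult brain astrocytes are regarded as the main cells that oxidise fatty acids, and PPAR-alpha, encoded by Ppara, with its coactivator PGC-1-alpha, encoded by Ppargc1a, controls many of these genes.

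The sorted cells were checked against marker genes before the members were compared. Astrocyte markers were bright on all arrays, but their summed linear signal was 24690 to 26345 on the reactive and 43294 to 55708 on the non-reactive arrays. Of 11 astrocyte markers, 2 fell and 1, Gfap, rose. In all, 10 of these markers lay below 0, with a median log2 fold change of -1.38, and 9 were lower without overlap. The 15 measured markers of microglia and macrophages summed to 24636 to 38919 on the reactive and 9634 to 10180 on the non-reactive arrays, and 6 of them rose. Of 9 blood leukocyte markers 3 rose (sums of 2646 to 5426 against 299 to 473) and of 11 oligodendrocyte markers 1 rose (24493 to 26590 against 20233 to 25573). Of the oligodendrocyte markers 10 lay above 0, with a median log2 fold change of 1.36, and 5 were higher without overlap. None of 10 neuronal markers (4239 to 10249 against 7189 to 10615) and none of 10 endothelial and mural markers (381 to 1823 against 623 to 1137) passed. RMA values have no true 0, and no marker was at 0. The Gapdh control measured 4.17 ± 0.41 (log2, SD, n = 3) for its 3′ minus 5′ signal on the reactive and 5.19 ± 0.50 on the non-reactive arrays. The same difference was lower in the reactive group for beta-actin (3.38 against 5.05) and pyruvate carboxylase (1.44 against 3.46), similar for the transferrin receptor (0.55 against 0.43) and higher for 18S RNA (0.83 against -1.15). The part of these differences in the results below was not tested, and fewer astrocytes in a sample and less RNA per astrocyte cannot be told apart.

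Most members were lower in the reactive samples, but only Acsl6 passed the threshold. Of the 31 measured genes 26 had a log2 fold change below 0, against 39.3% of all 18193 genes, and their median was -0.60 against 0.12 for all genes. In 11 members every reactive array lay below every non-reactive array, which was so for 8.2% of all genes. The reverse, every reactive array above every non-reactive array, held for 0 members and for 13.5% of all genes. Limma called 1 member lower and none higher at an adjusted p under 0.05, against 0.561% of all genes lower and 0.39% higher. At an unadjusted p under 0.05, 12 members were lower and 0 higher, against 7.13% and 7.88% of all genes. A difference of more than 2-fold was seen downward in 11 members and upward in 1, against 6.61% and 5.65% of all genes. Among the 12114 genes left after dim probe sets had been removed, 47.3% were below 0 and 11.1% were lower without overlap, and of the 29 members among them 26 and 11 were.

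The replicates of the reactive group were more spread than those of the non-reactive group. The median SD over the members was 0.57 on the log2 scale for reactive and 0.37 for non-reactive arrays, against 0.40 and 0.28 over all genes. Reactive replicate 3 gave the lowest of the 6 values for 12 members and the highest for 5. Non-reactive replicate 1 gave the highest value for 16 members. The median standard error of a member's log2 fold change was 0.39.

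**Figure D1:**
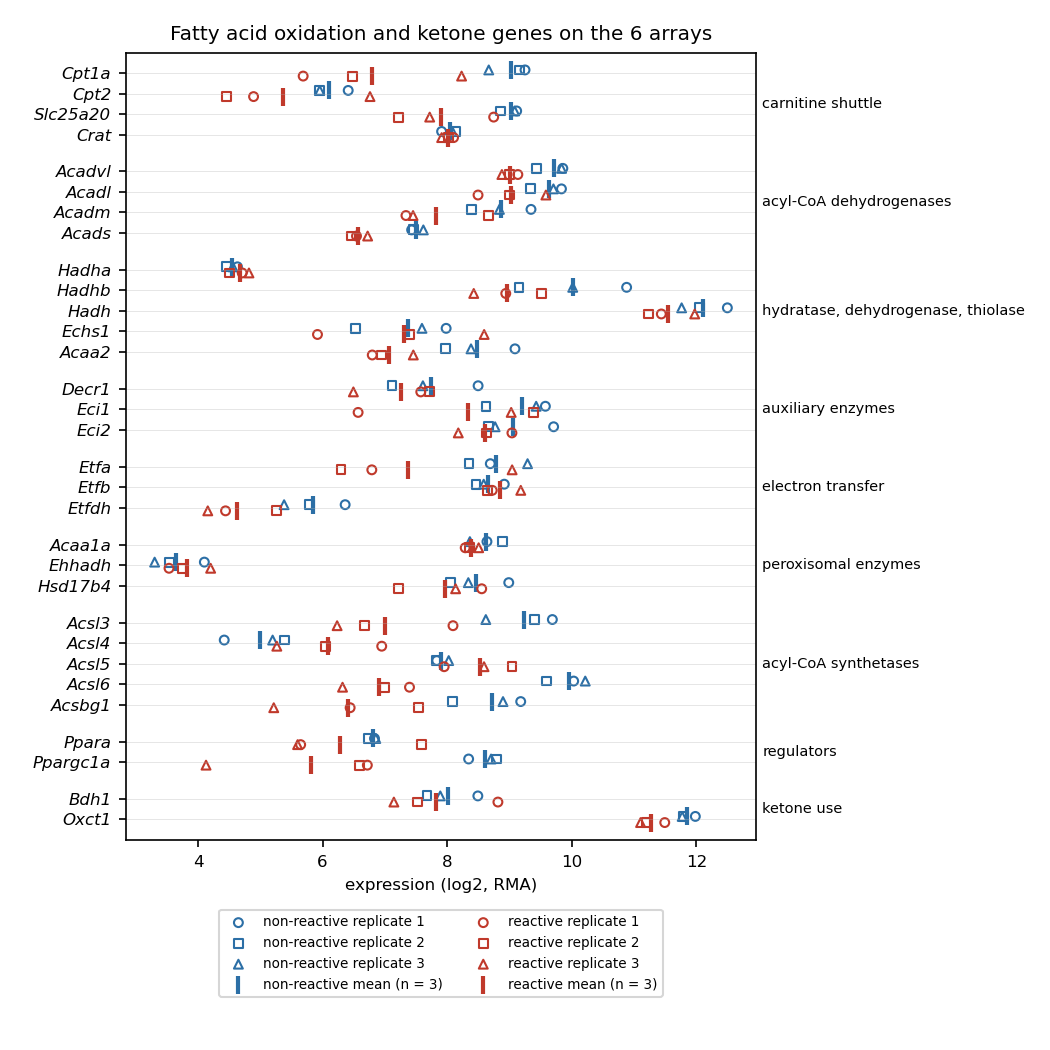
Expression of the 31 measured members on the log2 scale (x axis, RMA values) on each of the 6 arrays, grouped by role (y axis). Open symbols are single arrays and vertical ticks are the means of 3 arrays; reactive values lie left of all non-reactive values for 11 members, among them Acsl6, Acsl3, Acsbg1, Cpt1a and Ppargc1a.

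Acyl-CoA synthetases, which activate fatty acids for every later use, held the largest differences of the enzymes, and they differed in direction. Acsl6, a synthetase of the brain that activates long polyunsaturated fatty acids such as docosahexaenoic acid, measured 7.39, 6.99 and 6.32 in the reactive and 10.03, 9.60 and 10.22 in the non-reactive replicates. All 3 reactive arrays lay well below every non-reactive array. Acsl6 fell 8.26-fold, by 3.05 on the log2 scale (SE 0.33, limma adjusted p = 0.0248). Its other probe set differed by -1.48 (SE 0.23, limma adjusted p = 0.0512), also without overlap of the groups. With 1 array left out the difference of the representing probe set ran from -3.29 to -2.76, but the call was not always kept. Limma gave an adjusted p of 0.0501 when reactive replicate 1 was left out, 0.0542 without reactive 2 and 0.0415 without reactive 3. With a non-reactive array left out it was 0.0915, 0.0834 or 0.0937 for replicates 1, 2 and 3. In these last fits 0 of all 18193 genes were called.

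Because Acsl6 was the member called, its promoters were read from RefSeq on GRCm38.p6, as windows of 250 bases before to 50 bases after an annotated start. The table held windows for 28 of the 32 members. The search covered both strands for 4 motifs: the estrogen-related receptor (ERR) element TCAAGGTCA, whose receptors are partners of PGC-1-alpha; the direct repeat bound by PPAR-alpha with its RXR partner, a pair of AGGTCA half-sites 1 base apart, with up to 2 mismatches; the NRF1 site, a pair of GCGC with 2 free bases between; and the cyclic AMP response element TGACGTCA. Of the 3 Acsl6 windows 1 held an ERR element, on the strand opposite to the gene with its first base at position -167 from the annotated start. It was the only exact ERR element among the 32 windows of members, and 0.423% of all 32851 windows held one. The window, chr11:54303574-54303873 on the plus strand, is shown with that element in capitals.
Acsl6: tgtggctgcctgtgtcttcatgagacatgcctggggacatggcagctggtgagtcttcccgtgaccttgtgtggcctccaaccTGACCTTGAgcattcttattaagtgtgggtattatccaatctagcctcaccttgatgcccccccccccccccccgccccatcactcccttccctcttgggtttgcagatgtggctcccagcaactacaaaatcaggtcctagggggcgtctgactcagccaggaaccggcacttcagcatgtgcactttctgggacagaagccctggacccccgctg

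Acsbg1, the bubblegum synthetase that activates long and very long chains and is abundant in astrocytes, measured 6.44, 7.54 and 5.21 in the reactive and 9.18, 8.09 and 8.90 in the non-reactive replicates. The groups did not overlap, and the log2 difference was -2.32 (SE 0.60, limma adjusted p = 0.173). Acsl3, which activates fatty acids at the endoplasmic reticulum and on lipid droplets, measured 8.09, 6.67 and 6.23 against 9.69, 9.39 and 8.62. Its difference of -2.24 (SE 0.53) did not pass either (limma adjusted p = 0.136). The 2 other probe sets of Acsl3 differed by -2.54 and -2.70, both without overlap. When its 3 probe sets were averaged, Acsl3 fell by 2.49 (limma adjusted p = 0.0483). In both genes the reactive arrays were far apart from each other. With 1 array left out the difference ran from -2.89 to -1.73 for Acsbg1 and from -2.78 to -1.85 for Acsl3.

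The other measured synthetases had means that were higher in the reactive group. Acsl4, which prefers arachidonic acid and supplies the lipids oxidised in ferroptosis, measured 6.95, 6.04 and 5.26 in the reactive and 4.42, 5.38 and 5.20 in the non-reactive replicates. The groups overlapped through reactive replicate 3, and the difference was 1.08 (SE 0.47, 95% interval -0.05 to 2.21, limma adjusted p = 0.395). Its other probe sets, at means of 3.13 to 3.29 and thus dim (the median probe set of the array averaged 4.74), differed by 0.10 and -0.02. Acsl5, a synthetase of mitochondria and the endoplasmic reticulum, measured 7.95, 9.04 and 8.59 against 7.83, 7.83 and 8.02 and differed by 0.63 (SE 0.30, limma adjusted p = 0.433). Of the 5 measured synthetases 1 fell, and 3 lay below and 2 above 0.

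The carnitine shuttle carries activated long chains across the inner mitochondrial membrane. Cpt1a, the carnitine palmitoyltransferase of the outer membrane and the step that limits entry, measured 5.69, 6.47 and 8.23 in the reactive and 9.25, 9.16 and 8.67 in the non-reactive replicates. Reactive replicate 3 lay close to the non-reactive range and the other reactive arrays far below it. The difference was -2.23 (SE 0.62, limma adjusted p = 0.202). Without reactive replicate 3 Cpt1a fell by 2.95 (limma adjusted p = 0.0445), whereas without reactive replicate 1 the difference was -1.67 (limma adjusted p = 0.3005). With averaged probe sets it was -1.23. The other probe sets of Cpt1a both differed by -0.72, at lower means of 3.56 to 5.16.

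Slc25a20, the carnitine-acylcarnitine carrier of the inner membrane, measured 8.75, 7.22 and 7.72 in the reactive and 9.11, 8.86 and 9.08 in the non-reactive replicates. The groups did not overlap, with a difference of -1.12 (SE 0.39, limma adjusted p = 0.302). Its other probe set was tighter, at 5.27, 4.70 and 5.05 against 6.44, 6.24 and 6.42, and differed by -1.36 (SE 0.22, limma adjusted p = 0.0581). Cpt2, the inner-membrane transferase that releases the acyl-CoA in the matrix, differed by -0.73 (SE 0.59) with overlapping groups. Its reactive replicate 3, at 6.76, lay above all other arrays, and without it the difference was -1.43 (limma adjusted p = 0.104). The other probe set of Cpt2, at a mean of 3.44, differed by -0.17. Crat, the acetyltransferase that buffers short acyl groups in mitochondria and peroxisomes, had nearly equal means in reactive and non-reactive arrays, 8.01 ± 0.10 and 8.04 ± 0.12 (log2, SD, n = 3). Its difference of -0.03 had a 95% interval from -0.48 to 0.41, and its sign turned with cyclic loess scaling.

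Slc25a20 is shown as the member of the shuttle whose window held a match to the direct repeat, as did those of Etfa and Echs1. These were 3 of the 32 windows of members, and 3.86% of all windows held such a match. The match began at position 7, counted from the start base as 1, and carried 2 mismatches. The window, chr9:108661886-108662185 on the plus strand, has the match in capitals.
Slc25a20: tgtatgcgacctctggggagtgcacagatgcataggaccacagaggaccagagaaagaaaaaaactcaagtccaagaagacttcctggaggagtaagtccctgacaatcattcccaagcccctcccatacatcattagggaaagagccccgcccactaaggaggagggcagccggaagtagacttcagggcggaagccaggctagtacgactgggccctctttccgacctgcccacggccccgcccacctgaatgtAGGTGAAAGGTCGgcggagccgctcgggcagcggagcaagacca

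The 4 mitochondrial acyl-CoA dehydrogenases, each suited to a range of chain lengths, all measured lower in the reactive group without passing. Acads, for short chains, was the most even of them, at 6.54, 6.45 and 6.72 in the reactive and 7.43, 7.45 and 7.62 in the non-reactive replicates. The difference was -0.93 (SE 0.19, limma adjusted p = 0.101). Acadvl, for very long chains, measured 9.133, 9.001 and 8.877 against 9.855, 9.427 and 9.835 and differed by -0.70 (SE 0.21, limma adjusted p = 0.238). Neither of these genes had overlapping groups. Acadm, for medium chains, differed by -1.04 (SE 0.43) and Acadl, for long chains, by -0.60 (SE 0.32). Both overlapped, Acadm through reactive replicate 2 at 8.66 and Acadl through reactive replicate 3 at 9.58. The second probe set of Acadl, at a mean below 4.74, differed by 0.74 with a standard error of 0.89.

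**Figure D2:**
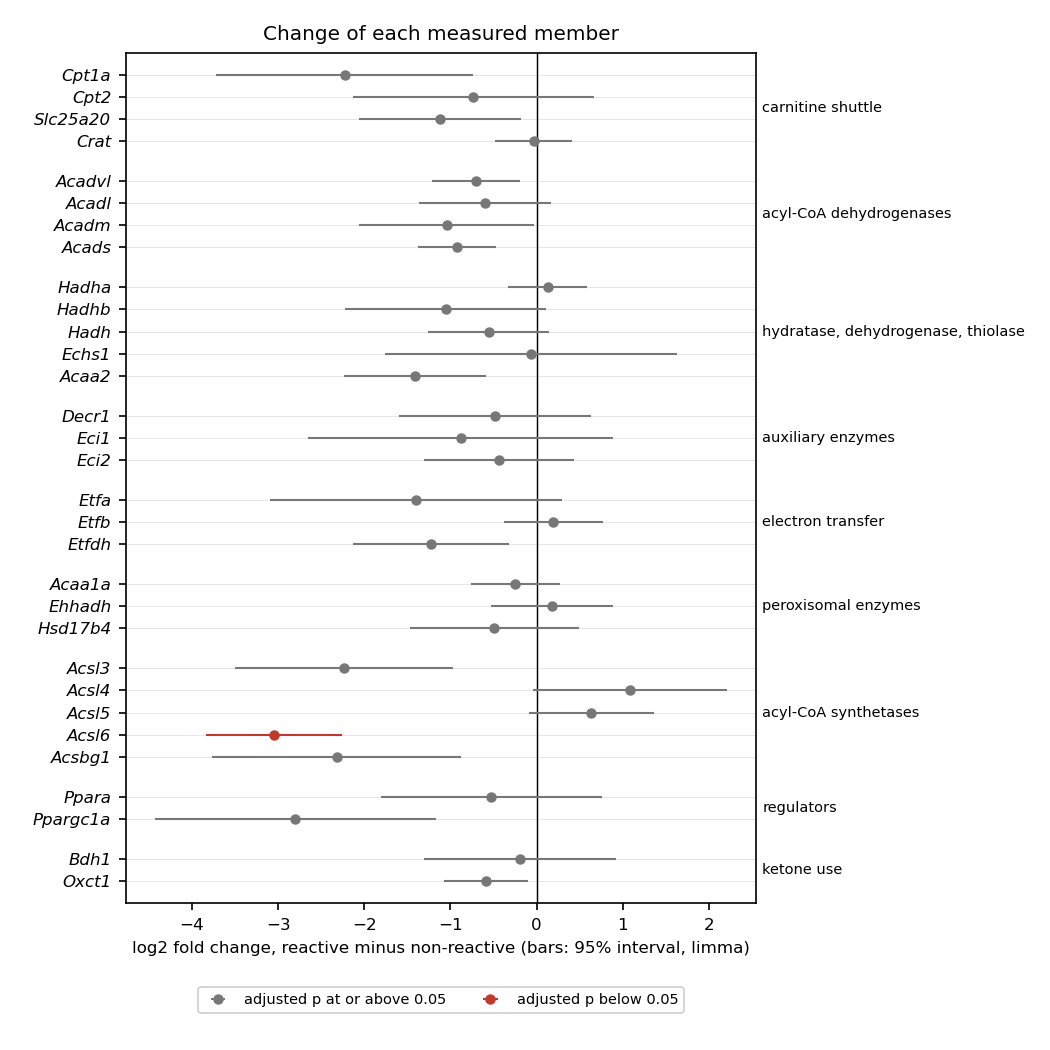
Log2 fold change of each measured member, reactive minus non-reactive (x axis), with its 95% interval from the limma fit of 3 against 3 arrays, grouped by role (y axis). Acsl6, in red, was the 1 gene with an adjusted p below 0.05; the intervals of 11 others lay wholly below 0 and no interval lay wholly above 0.

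The later steps of the mitochondrial cycle were mixed. Acaa2, the thiolase that cleaves off acetyl-CoA, measured 6.80, 6.95 and 7.46 in the reactive and 9.09, 7.97 and 8.38 in the non-reactive replicates. Its groups did not overlap, and the difference was -1.41 (SE 0.34, limma adjusted p = 0.146). The other probe sets of Acaa2 differed by -1.01 and, at a mean below 4.74, by -0.30. Hadhb, the thiolase subunit of the trifunctional protein, measured 8.94, 9.51 and 8.43 against 10.88, 9.15 and 10.01. It overlapped through non-reactive replicate 2, and the difference was -1.06 (SE 0.49, limma adjusted p = 0.417). The 2 other probe sets of Hadhb differed by -0.67 and -0.52, both without overlap. Hadh, the short-chain hydroxyacyl-CoA dehydrogenase, differed by -0.56 (SE 0.29). The other probe sets of Hadh, at means of 8.12 and 4.89 against 11.83, differed by -0.44 and -0.09.

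Hadha, which encodes the partner subunit of Hadhb in the trifunctional protein, was read by a single dim probe set. Its log2 value was 4.68 ± 0.16 (SD, n = 3) for reactive and 4.55 ± 0.09 for non-reactive arrays, under the array's median level of 4.74. A difference in its transcript may not be readable at that level. The 2 genes lie head to head on opposite strands, with annotated starts 273 bases apart. Their promoter windows share 228 bases, and neither window held any of the 4 motifs. Echs1, the short-chain enoyl-CoA hydratase, had widely spread values. Its reactive values were 5.92, 7.40 and 8.59 and its non-reactive values 7.98, 6.53 and 7.59, a difference of -0.07 with a standard error of 0.71 whose sign turned with array weights.

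The auxiliary enzymes, which move or reduce double bonds of unsaturated chains, were not called. Decr1, the dienoyl-CoA reductase, differed by -0.48 (SE 0.47), Eci1, an enoyl-CoA isomerase, by -0.88 (SE 0.74) and Eci2, an isomerase of mitochondria and peroxisomes, by -0.43 (SE 0.36). In all of them the groups overlapped, and the other probe set of Decr1, at a mean of 4.36, differed by -0.54. The value of Eci1 rested on reactive replicate 1, which read 6.57 beside 9.39 and 9.03 in the other reactive arrays and 8.62 to 9.58 in the non-reactive ones. Without that replicate Eci1 differed by -0.002 on the log2 scale.

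The electron transfer genes did not behave alike. Etfdh, the oxidoreductase that hands the electrons to ubiquinone, measured 4.44, 5.25 and 4.16 in the reactive and 6.36, 5.79 and 5.38 in the non-reactive replicates. The groups did not overlap but nearly touched, and the difference was -1.23 (SE 0.38, limma adjusted p = 0.247). Etfa, the alpha subunit of the flavoprotein, measured 6.79, 6.29 and 9.04 against 8.69, 8.35 and 9.29. Reactive replicate 3 lay within the non-reactive range, and the difference was -1.40 (SE 0.71, limma adjusted p = 0.456). Without that replicate it was -2.24 (limma adjusted p = 0.0724). Etfb, the beta subunit, differed by 0.20 (SE 0.24), with a 95% interval from -0.38 to 0.77.

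Etfdh is shown as the only member with several NRF1 sites in its window, and NRF1 is a transcription factor of many respiratory genes. The sites began at positions -128 and 13 from the annotated start. Etfb and Ppara held 1 each, and 6.23% of all windows held at least 1. That share was not matched for the content of G and C bases. Its median was 60.5% in the windows of members and 52.7% in all windows. The Etfdh window, chr3:79628718-79629017, is on the minus strand and is written in the direction of the gene, with the sites in capitals.
Etfdh: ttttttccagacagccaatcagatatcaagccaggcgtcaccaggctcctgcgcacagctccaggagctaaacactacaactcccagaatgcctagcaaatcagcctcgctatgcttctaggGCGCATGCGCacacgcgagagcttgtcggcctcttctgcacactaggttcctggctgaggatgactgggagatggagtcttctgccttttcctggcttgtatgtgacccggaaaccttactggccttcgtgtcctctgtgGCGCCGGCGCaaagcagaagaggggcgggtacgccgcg

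Over the 19 mitochondrial enzymes of oxidation, without the ketone enzymes, the median log2 fold change was -0.73. Of these, 17 lay below 0 and 6 were lower without overlap, against 39.3% and 8.2% of all genes, and none passed. The 3 peroxisomal enzymes had a median of -0.25, and all of their groups overlapped on the probe sets that stood for them. With averaged probe sets the medians came closer, at -0.53 for the 21 mitochondrial members, ketone enzymes included, and -0.46 for the peroxisomal ones. The difference between them was not tested. Hsd17b4, the multifunctional enzyme that does hydration and dehydrogenation in peroxisomes, measured 8.55, 7.22 and 8.13 in the reactive and 8.99, 8.06 and 8.34 in the non-reactive replicates, a difference of -0.49 (SE 0.41). Its other probe set gave -0.55. Acaa1a, the peroxisomal thiolase, measured 8.29, 8.36 and 8.50 against 8.64, 8.89 and 8.36 and differed by -0.25 (SE 0.22, 95% interval -0.76 to 0.27). Its other probe set differed by -0.67 (SE 0.31), also with overlapping groups. Acaa1a has a near-identical copy, Acaa1b, and 2 probe sets assigned to both differed by -1.56 and -0.78, so which of the genes a probe set reads is uncertain. The shared probe set at -0.78 was lower without overlap. Its mean of 9.23 was above that of the probe set standing for Acaa1a, 8.51. Ehhadh, the bifunctional enzyme of peroxisomes and a classic PPAR-alpha target in liver, was dim in both groups, with means of 3.83 and 3.65, and differed by 0.18 (SE 0.30).

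The regulators differed in how far their probe sets agreed. Ppargc1a was read by 5 probe sets, all of them lower in the reactive group. The representing probe set measured 6.72, 6.59 and 4.13 in the reactive and 8.34, 8.80 and 8.70 in the non-reactive replicates. The groups did not overlap, but reactive replicate 3 lay far below the other reactive arrays. The difference was -2.80 (SE 0.68, limma adjusted p = 0.146), and the 4 other probe sets gave -1.70, -1.79, -2.16 and -2.36. Without reactive replicate 3 the difference of the representing probe set was -1.96 (limma adjusted p = 0.0519). In 3 of the 5 probe sets the groups did not overlap, and none of them passed.

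Ppara was read by 3 probe sets that disagreed. The representing probe set measured 5.65, 7.59 and 5.60 in the reactive and 6.83, 6.73 and 6.85 in the non-reactive replicates, a difference of -0.53 (SE 0.54, limma adjusted p = 0.697) with reactive replicate 2 above all other arrays. Another probe set measured 4.01, 4.84 and 3.38 against 7.74, 8.68 and 7.84 and fell 16.1-fold, by 4.01 on the log2 scale (SE 0.44, limma adjusted p = 0.0249). Its groups were far apart. Its reactive mean of 4.08 was under the array's median level of 4.74, where the size of a fall is uncertain. With reactive replicate 1, 2 or 3 left out, limma gave this probe set an adjusted p of 0.0703, 0.0371 or 0.0436. With non-reactive replicate 1, 2 or 3 left out it was 0.0893, 0.0953 or 0.0879, so the call was lost in 4 of these 6 fits. The last probe set of Ppara was dim and differed by 0.07. Which transcripts of Ppara each probe set reads was not tested. The promoter window of Ppara, chr15:85735526-85735825 on the plus strand, is shown for this gene because of these calls. It held an NRF1 site, in capitals, that began at position -31 from the annotated start, and no match to the other motifs.
Ppara: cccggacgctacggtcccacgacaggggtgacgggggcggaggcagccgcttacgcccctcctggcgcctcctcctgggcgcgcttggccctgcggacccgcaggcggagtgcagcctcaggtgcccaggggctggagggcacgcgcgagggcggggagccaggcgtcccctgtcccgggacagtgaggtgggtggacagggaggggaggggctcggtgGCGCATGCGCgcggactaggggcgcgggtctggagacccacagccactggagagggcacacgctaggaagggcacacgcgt

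**Figure D3:**
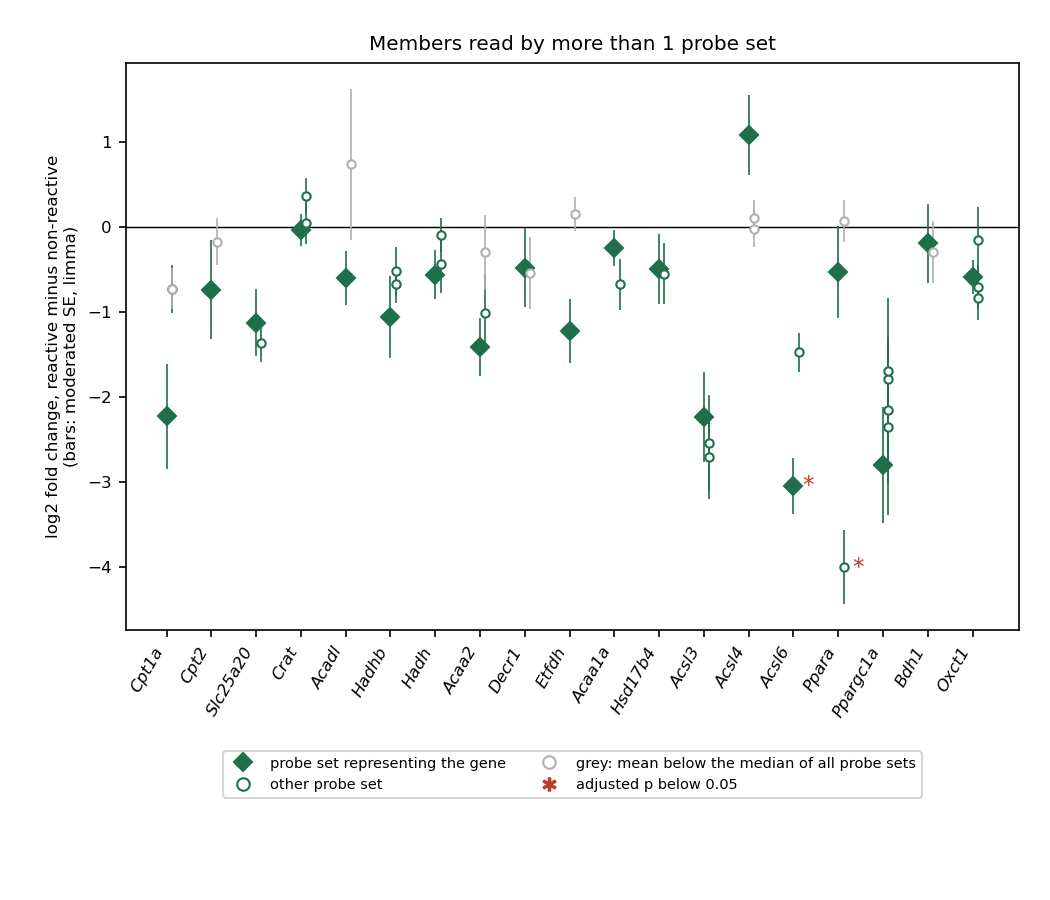
Log2 fold change of every probe set of the 19 members read by more than 1 (y axis, bars are moderated standard errors of the limma fit); diamonds represent the gene and circles are its other probe sets, grey where the mean lies under the array's median level. Acsl3, Acsl6 and Ppargc1a were lower on all of their probe sets, whereas the probe sets of Ppara ran from 0.07 to -4.01; asterisks mark the 2 probe sets with an adjusted p below 0.05.

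Across members, the probe sets mostly pointed the same way. The 31 genes had 63 probe sets, of which 52 lay below 0, 23 were lower without overlap and 0 were higher without overlap. Over all 45037 probe sets, 39.6% lay below 0, 8.08% were lower and 12.8% were higher without overlap. Limma called 2 of the 63 lower, those of Acsl6 and Ppara described above. Of all 45037 probe sets it called 263 lower and 383, or 0.85%, in either direction. Of the 19 genes with several probe sets, 14 had all of them on the same side of 0. The exceptions were Crat, Acadl, Etfdh, Acsl4 and Ppara. Of the 12 probe sets with means below 4.74, 6 lay below 0 and 6 above, while 46 of the 51 brighter ones lay below 0.

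Neither ketone enzyme passed. Oxct1, the transferase that commits ketone bodies to oxidation, measured 11.49, 11.20 and 11.10 in the reactive and 11.98, 11.79 and 11.77 in the non-reactive replicates. The groups did not overlap, and the difference was -0.58 (SE 0.20, limma adjusted p = 0.299). Its 3 other probe sets gave -0.70, -0.15 and -0.83. Bdh1, the hydroxybutyrate dehydrogenase, measured 8.81, 7.52 and 7.14 against 8.49, 7.67 and 7.89. Reactive replicate 1 lay above every non-reactive array and reactive replicates 2 and 3 below every one, so the groups overlapped only through replicate 1. The difference was -0.19 (SE 0.47, 95% interval -1.31 to 0.93).

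Other genes of the same pathways gave no calls, and more of them were lower than higher. Of 72 further genes listed for fatty acid oxidation, peroxisomes, ketone metabolism and their regulators, 63 were measured, and limma called 0 of them, against 0.951% of all genes. At an unadjusted p under 0.05 there were 13, of which 9 were lower and 4 higher, against 7.13% and 7.88% of all genes. Without overlap 9 were lower and 5 higher, against 8.2% and 13.5% of all genes. More than 2-fold differences were seen downward in 10 and upward in 2, against 6.61% and 5.65% of all genes. The median log2 fold change of the 63 genes was -0.17, and 36 lay below and 27 above 0. The list of 20 further mitochondrial genes had a median of -0.22, that of 20 peroxisomal genes 0.01, that of 5 ketone genes 0.33 and that of 18 regulators and PPAR targets -0.39.

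The brightest genes of these lists were not called. Acot13 and Acot2, mitochondrial thioesterases, differed by 0.46 (SE 0.40) and -0.47 (SE 0.48). Scp2, a sterol carrier with peroxisomal thiolase activity, differed by 0.34 (SE 0.36) and Abcd3, a peroxisomal transporter, by 0.26 (SE 0.26). Acat1, the mitochondrial acetoacetyl-CoA thiolase that acts after Oxct1, measured 9.90, 9.86 and 9.86 in the reactive and 10.58, 10.30 and 10.91 in the non-reactive replicates. Its groups did not overlap, and it differed by -0.73 (SE 0.22, limma adjusted p = 0.242). Aacs, which activates acetoacetate in the cytosol, differed by 0.33 (SE 0.28), the mitochondrial deacetylase Sirt3 by -0.38 (SE 0.42) and the receptor Rxrb by -0.38 (SE 0.26).

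Larger differences were seen in genes picked after their values were seen. Acss1, the mitochondrial acetyl-CoA synthetase, differed by -2.96 (SE 0.78, limma adjusted p = 0.179). Slc27a1, a fatty acid transporter, differed by -1.97 (SE 0.36, limma adjusted p = 0.0737) and Slc22a5, the carnitine transporter of the plasma membrane, by -1.80 (SE 0.40, limma adjusted p = 0.123). Mcee, the methylmalonyl-CoA epimerase of propionate breakdown, measured 8.99, 8.60 and 8.76 in the reactive against 7.42, 5.91 and 5.85 in the non-reactive replicates. All its reactive values were higher, by 2.39 (SE 0.44, limma adjusted p = 0.0786). Plin2, the coat protein of lipid droplets, measured 9.56, 8.72 and 10.97 in the reactive and 8.23, 8.03 and 8.23 in the non-reactive replicates. Its reactive values were also all higher, by 1.59 on average (SE 0.54, limma adjusted p = 0.289). Of the 20 further peroxisomal genes 10 lay below and 10 above 0, and 3 were lower and 0 higher without overlap. Those lower were Pex11a, by 1.72 (SE 0.47, limma adjusted p = 0.197), and Crot, by 1.39 (SE 0.31, limma adjusted p = 0.117). The last was Hacl1, which differed by -1.29 (SE 0.33, limma adjusted p = 0.161). None of these genes passed.

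The members differed between the groups on arrays where the astrocyte markers also differed. The mean deviation of the 31 members from their 6-array means was -0.46, -0.34 and -0.42 in reactive replicates 1, 2 and 3 and 0.66, 0.18 and 0.37 in the non-reactive ones. The 11 astrocyte markers, Gfap included, deviated by -0.34, -0.39 and -0.63 in the reactive and by 0.64, 0.18 and 0.53 in the non-reactive replicates. Gfap, which rose by 3.12, drew these means toward 0. The median log2 fold change was -1.38 for the astrocyte markers and -0.60 for the members. In both lists non-reactive replicate 1 was highest and non-reactive replicate 2 lowest within its group. The roles did not follow 1 pattern among the reactive arrays. In reactive replicate 3 the carnitine shuttle deviated by 0.12 and electron transfer by 0.11, while the synthetases deviated by -1.25 and the regulators by -2.01. In that array the endothelial and mural markers deviated by 0.94, against -0.32 and -0.31 in reactive replicates 1 and 2. The neuronal markers deviated by -0.94 there, against 0.10 and 0.66. The microglia and macrophage markers deviated by 0.81 to 1.18 on the reactive and -1.08 to -0.82 on the non-reactive arrays. The part of these cell types in the differences of the members was not tested.

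**Figure D4:**
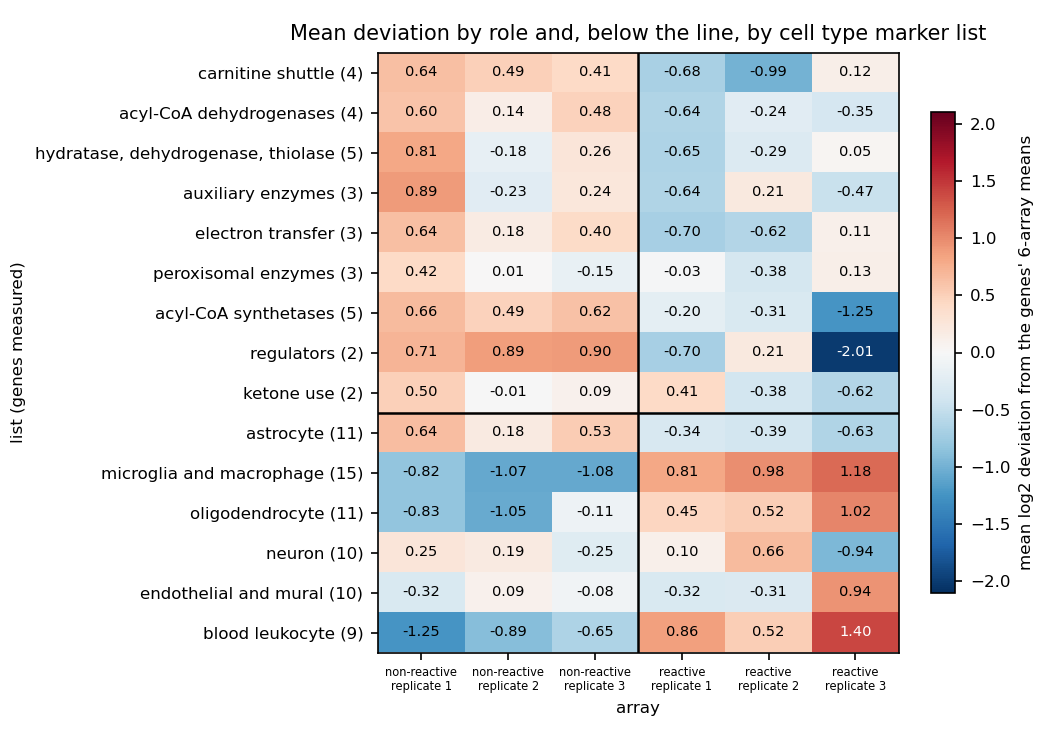
Mean log2 deviation of each role and, below the black line, of each cell type marker list from the genes' means over the 6 arrays; columns are arrays, numbers in brackets count the measured genes, red is above and blue below the mean. The synthetases ranged from 0.49 to 0.66 on the non-reactive and from -1.25 to -0.20 on the reactive arrays, and the peroxisomal enzymes stayed between -0.38 and 0.42.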

How the data were processed

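The deposited values are log2 expression values of an Affymetrix mouse array, made by the authors with RMA, per the submitters' processing notes. The RMA version, its settings and which arrays were summarised jointly are not given in the sources used. RMA equalises array distributions, so a change in total RNA is hidden. RNA was amplified in 2 rounds, per the labels' protocols. The number of arrays, 3 per group, limits the precision.

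Reactive minus non-reactive was fitted with limma 3.58.1 (lmFit, eBayes) in R 4.3.3 over 45037 probe sets, without 64 controls and without covariates. P-values are two-sided and were adjusted by Benjamini and Hochberg's method over all rows tested, with a threshold of 0.05. Errors are moderated standard errors and intervals cover 95%. The fit was tested on simulated data. Every member is named; of the further pathway genes those called and the 2 brightest uncalled of each list are named, and any others are stated as picked later. The members and lists were chosen with earlier results of these data known. The labels call the samples biological replicates of pooled animals. Same-numbered samples of the groups are not described as sharing anything, and their deviations correlated at -0.0726, -0.107 and 0.0371, so the numbers were not taken to pair them. Promoter sequences are from RefSeq (GRCm38.p6). Alternatives covered scaling, the empirical Bayes step, weights, dim and suffixed probe sets, probe set averaging, a replicate block, a test against a 1.5-fold change and each array left out.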

Additional observations from a re-analysis of the deposited data

How the results depend on the processing

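Of the 31 members 26 kept the sign of their difference in each of the up to 17 alternatives that measured them. Limma called 2 members with averaged probe sets (Acsl3 and Acsl6), and 0 with a replicate block (Acsl6 then had an adjusted p of 0.111 and the second Ppara probe set 0.105) or in the test against a 1.5-fold change, in which 6 members were lower at an unadjusted p under 0.05. With 1 array left out it called 0 to 2 members and 0 to 77 genes of all, against 173, and 0 genes with the block and 14 in the 1.5-fold test. With 1 array left out the median of all members ran from -0.79 to -0.52, that of the synthetases from -2.34 to -1.73, and 24 to 26 members lay below 0. The replicate block changed no count other than those of calls by over 1.5 times. Signs turned for uncalled members: Crat gave 0.0036 with cyclic loess, 0.045 without suffixed probe sets and 0.13 with averaged probe sets; Acadl 0.071 with averaged probe sets; Echs1 0.057 with array weights. With 1 array left out Crat ran from -0.10 to 0.015, Echs1 ran from -0.71 to 0.63, Ehhadh from -0.0073 to 0.41 and Bdh1 from -0.68 to 0.15. Other probe sets turned the sign of Crat (0.045 and 0.37), Acadl (0.74), Etfdh (0.16), Acsl4 (-0.016) and Ppara (0.073). The causes were not tested. Counts of members below 0, lower without overlap or past an unadjusted p were added after seeing the data, as was the robustness of the second Ppara probe set. The median over all genes was 0.12, and 0.06 with cyclic loess. Dim probe sets limit Hadha and Ehhadh.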
